A study of Mus musculus with 9 samples.

Results

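Transcripts of 10 genes of bone and mineralized tissue were followed in 9 heart libraries. The genes were Runx2, Sp7, Alpl, Phex, Ibsp, Bglap, Bglap2, Dmp1, Mepe and Col10a1, found by their gene names among the 41710 gene names of the deposited tables, and all 10 were present. They were chosen by name with their difference between the groups already known, so their values are given as a description and no p-value is attached to them. All hearts came from 8-month-old male FVB/N mice, and each group has 3 libraries, which the labels number as hearts 1 to 3. Tg-RKIP mice carry a transgene for the RAF kinase inhibitor protein RKIP, driven by the alpha-MHC promoter and so expressed in cardiomyocytes. The second group is labelled Tg-GRK2, for a transgene of the G protein-coupled receptor kinase GRK2, and the third group is non-transgenic FVB. Whole hearts were pulverised, so each value is an average over all cells of the organ and of any tissue attached to it, and more cells of a type cannot be told apart from more RNA per cell.

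Bone is laid down by osteoblasts, in which the transcription factors RUNX2 and SP7 (osterix) act in sequence. Osteoblasts secrete type I collagen together with small acidic glycoproteins and osteocalcin, and alkaline phosphatase at their surface removes the pyrophosphate that blocks crystal growth. Cells buried in the matrix become osteocytes, which express DMP1, MEPE and PHEX and regulate phosphate through the hormone FGF23. Hypertrophic chondrocytes of the growth plate produce type X collagen before cartilage is replaced by bone. In a normal heart most of these genes are little used, and calcified or cartilage-like tissue is known mainly from valves, the aortic root and scars.

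The labels were checked first. Pebp1, the gene of RKIP, reached 8262 CPM (reads scaled to a library of fixed size by the TMM method) in Tg-RKIP hearts against 293.9 CPM in FVB hearts, a log2 fold change of 4.81. Grk2 had 55.3 CPM in Tg-RKIP, 56.4 CPM in the Tg-GRK2-labelled libraries and 54.3 CPM in FVB, and the difference between the last pair did not pass the test (log2 fold change 0.05 ± 0.04, SE, adjusted p = 0.354). A higher Grk2 level was thus not measured in that group, which is named by its label throughout. Between 25458108 and 33447654 reads per library lay on transcripts. Mitochondrial genes took 11.5% to 11.8% of the reads in Tg-RKIP, 22.4% to 22.9% in the Tg-GRK2-labelled libraries and 22.9% to 23.2% in FVB. Levels between genes are given as TPM, which divides reads by transcript length, and fold changes are those of reads normalised by the TMM method. In TPM, Grk2 stood at 36.3 ± 1.59 in Tg-RKIP, 27.3 ± 2.90 in the Tg-GRK2-labelled libraries and 27.1 ± 1.05 in FVB (SD). Its difference between Tg-RKIP and FVB thus depended on the scaling. The paper on these data reports a higher Grk2 level in Tg-RKIP, by a larger ratio than the TPM here give. For Pebp1 it reports a smaller ratio than the one here. The reason for these differences was not tested.

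In Tg-RKIP hearts all 10 genes were detected in every library, and for each gene the lowest Tg-RKIP library lay above the highest FVB library and above the highest Tg-GRK2-labelled library, on normalised counts. By edgeR's quasi-likelihood test all 10 were higher in Tg-RKIP than in FVB, where 36.8% of all 15504 genes tested were called higher, and all 10 were higher than in the Tg-GRK2-labelled libraries, where 37.9% were. The share of all genes whose groups did not overlap is not given here. This contrast chose the genes, so nothing is read from these counts or from the lack of overlap. All 10 passed the filter on low counts, 8 of them through their Tg-RKIP libraries, while Alpl and Runx2 had 32 reads or more in every library. Between the Tg-GRK2-labelled libraries and FVB those 8 had 0 to 8 reads per library, too few for a comparison of these groups. The ratio of the Tg-GRK2-labelled libraries to FVB was 0.980 for Alpl (95% interval 0.931 to 1.03) and 0.895 for Runx2 (0.699 to 1.15), from summed reads.

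**Figure D1:**
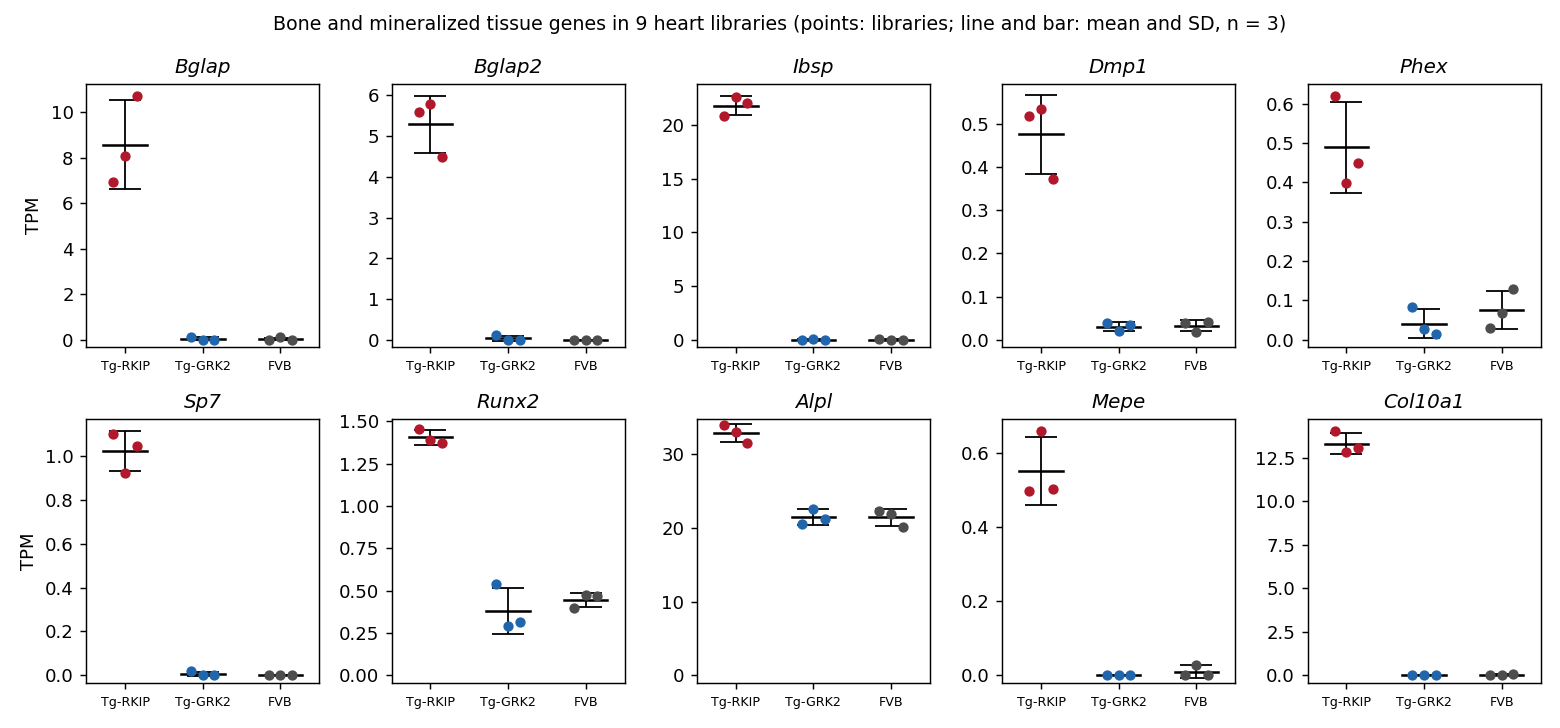
Level of each gene in TPM (vertical axis, a separate scale per panel) in the 3 libraries of each group, with points for libraries and a line and bar for mean and SD (n = 3). The Tg-RKIP libraries lie above all other libraries in every panel, from 31.6 to 34.0 TPM against 20.2 to 22.6 TPM for Alpl, and from 20.8 to 22.6 TPM against at most 0.0533 TPM for Ibsp.

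Runx2, the transcription factor that commits cells to the osteoblast lineage, was present in all hearts. It had 137, 173 and 121 reads in Tg-RKIP, 57, 32 and 42 reads in the Tg-GRK2-labelled libraries, and 42, 45 and 50 reads in FVB. Its mean level in Tg-RKIP, 1.41 ± 0.0427 TPM, lay apart from that in FVB, 0.444 ± 0.0432 TPM (SD, n = 3 for both). From the reads summed over each group, the ratio of Tg-RKIP to FVB was 2.43, with a 95% interval of 2.00 to 2.97. Runx2 lies on chromosome 17 (chr17:44806874-45125684, minus strand, GRCm39) with 14 annotated transcripts, and 84.0% of its reads were assigned to the 9-exon transcript ENSMUST00000113571, which starts at the distal first exon. The transcript from the proximal first exon, ENSMUST00000113572, was assigned 20, 0 and 0 reads in Tg-RKIP and 10, 5 and 8 reads in FVB. How reads of shared exons were divided between transcripts is not given in the sources used here, and this split moved between libraries of a group.

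Sp7, the zinc finger factor osterix that acts after Runx2, was at the floor outside Tg-RKIP. It had 57, 62 and 51 reads in Tg-RKIP (1.10, 0.925 and 1.05 TPM), 1, 0 and 0 reads in the Tg-GRK2-labelled libraries and 0 reads in each FVB library. Set against 3 reads over the whole FVB group, the most that a count of 0 allows, the level of Sp7 in Tg-RKIP was at least 43.8-fold higher. Without FVB library 2, the deepest of its group, the bound was at least 27.9-fold. All such bounds and intervals cover counting error only. In the third Tg-RKIP library 16 of its reads were assigned to one protein-coding transcript and 35 to another, while in the first and second all of them went to the former, so only the gene sum is compared.

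Alpl, the tissue-nonspecific alkaline phosphatase, was the most abundant of the 10 genes in every group. It had 1364, 1715 and 1271 reads in Tg-RKIP, 935, 934 and 1069 in the Tg-GRK2-labelled libraries, and 963, 1006 and 836 in FVB. Those values are 32.9 ± 1.21 TPM, 21.5 ± 1.07 TPM and 21.4 ± 1.12 TPM (SD, n = 3), and the Tg-RKIP libraries lay apart from the others. The ratio to FVB was 1.20 (95% interval 1.14 to 1.26) on normalised counts, the smallest ratio of the 10 genes. Its log2 fold change was 0.26 by TMM and up to 0.64 in other settings, and it did not pass a test for a change of at least 1.5-fold. The scaling also moved the median log2 fold change of all genes tested, which was 0.0085 by TMM, 0.384 with library size only and 0.431 on log2(TPM + 0.1). The 12-exon transcript took 99.2% of its reads.

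Phex encodes an endopeptidase of osteocytes on the X chromosome whose loss raises circulating FGF23. It was measured at 36, 37 and 31 reads in Tg-RKIP, 5, 3 and 2 reads in the Tg-GRK2-labelled libraries and 2, 8 and 7 reads in FVB. The lowest Tg-RKIP library was thus well above the highest of the others, although Phex was not absent from them. The ratio to FVB was 4.73 (95% interval 2.82 to 8.43). Of the Phex reads, 68.7% were assigned to a 1-exon transcript. The 22-exon transcript was assigned 0, 14 and 10 reads in Tg-RKIP, so this split moved between libraries, and the TPM of Phex depends on it.

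Ibsp, the integrin-binding sialoprotein that nucleates hydroxyapatite, was the second most abundant gene of the 10 in Tg-RKIP hearts. Its 720, 1010 and 756 reads there (20.8, 22.6 and 22.1 TPM) stood against 1 read in each Tg-GRK2-labelled library and 2, 0 and 0 reads in FVB. The 3 Tg-RKIP libraries thus held 720 reads or more each, and the other 6 libraries held at most 2. With 2 reads in all of FVB the ratio was 961.5, with a 95% interval of 265.9 to 7944, and without FVB library 1, the only one with reads, Ibsp was at least 434.8-fold higher. Without FVB library 2 its ratio was 612.0. Col10a1, the type X collagen of hypertrophic chondrocytes, followed with 734, 869 and 678 reads in Tg-RKIP (14.0, 12.8 and 13.1 TPM), 0, 1 and 1 reads in the Tg-GRK2-labelled libraries and 0, 1 and 4 reads in FVB. Its ratio to FVB was 352.9 (95% interval 151.0 to 1088), and 1209 without FVB library 3, which held 4 of the 5 FVB reads. Exons of Col10a1 overlap Nt5dc1 on the opposite strand, and whether reads were counted by strand is not stated. Nt5dc1 had 253 to 358 reads in Tg-RKIP and 335 to 368 in FVB, and the part of its reads in the Col10a1 counts was not tested.

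Bglap and Bglap2 encode osteocalcin, the small vitamin K-dependent protein of mature osteoblasts, and are near-identical neighbours on chromosome 3 (chr3:88290808-88291771 and chr3:88285043-88286006, both on the minus strand, GRCm39). Bglap had 51, 77 and 78 reads in Tg-RKIP (6.93, 8.09 and 10.7 TPM), 1, 0 and 0 in the Tg-GRK2-labelled libraries, and 0, 1 and 0 in FVB. Bglap2 had 44, 59 and 35 reads in Tg-RKIP (5.58, 5.79 and 4.48 TPM), 1, 0 and 0 in the Tg-GRK2-labelled libraries, and 0 in each FVB library. Both were high in all 3 Tg-RKIP libraries and at 0 or 1 read elsewhere. The ratio to FVB was 159.3 for Bglap (95% interval 28.3 to 6324, on 1 FVB read), and Bglap2 was at least 35.6-fold higher. Without FVB library 2 the bounds were at least 33.8-fold for Bglap and at least 22.7-fold for Bglap2. The coding sequences of the GENCODE M21 transcripts are shown because they bear on how far the pair can be told apart by reads of 50 bases, with the bases that differ in capitals.
Bglap: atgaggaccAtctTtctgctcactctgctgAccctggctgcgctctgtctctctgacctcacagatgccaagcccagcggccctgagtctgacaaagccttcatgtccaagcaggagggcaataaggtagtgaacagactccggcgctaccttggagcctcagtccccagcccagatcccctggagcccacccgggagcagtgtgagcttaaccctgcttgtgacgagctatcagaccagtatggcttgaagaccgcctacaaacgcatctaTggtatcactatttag
Bglap2: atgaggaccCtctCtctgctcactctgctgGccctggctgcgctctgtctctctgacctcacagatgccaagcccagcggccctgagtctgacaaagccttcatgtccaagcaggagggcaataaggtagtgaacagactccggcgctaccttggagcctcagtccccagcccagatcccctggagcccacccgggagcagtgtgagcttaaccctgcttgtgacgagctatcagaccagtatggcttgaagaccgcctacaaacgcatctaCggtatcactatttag
Over 288 coding bases, 284 are identical (98.6%). Of the 391 windows of 50 bases in the Bglap transcript, 292 (74.7%) occur unchanged in Bglap2 and 363 (92.8%) occur there with at most 2 mismatches. The split between the pair is therefore uncertain. Bglap took 53.7%, 56.6% and 69.0% of their joint reads in Tg-RKIP libraries 1, 2 and 3, with exact binomial 95% intervals of 43.2% to 64.0%, 47.8% to 65.1% and 59.6% to 77.4%. The third related gene, Bglap3, of which 80 windows of Bglap occur unchanged, had 6, 4 and 1 reads in Tg-RKIP and 2, 0 and 0 in FVB, and its ratio of 4.25 had an interval of 0.929 to 39.5.

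Dmp1 and Mepe encode acidic phosphoproteins of osteocytes and dentine. Dmp1 had 24, 32 and 17 reads in Tg-RKIP, 2, 1 and 2 in the Tg-GRK2-labelled libraries, and 2, 1 and 2 in FVB, a ratio to FVB of 11.3 (95% interval 4.62 to 35.8). Mepe had 14, 24 and 14 reads in Tg-RKIP, 0 in each Tg-GRK2-labelled library, and 0, 1 and 0 in FVB. With 1 read in FVB its ratio was 40.2 (95% interval 6.91 to 1619), and without that library, FVB 2, it was at least 8.53-fold higher. These were the least abundant genes in reads, yet no library outside Tg-RKIP reached their lowest Tg-RKIP value.

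Ordered by mean TPM in Tg-RKIP, the genes ran from Alpl (32.9), Ibsp (21.8), Col10a1 (13.3), Bglap (8.58), Bglap2 (5.29), Runx2 (1.41) and Sp7 (1.02) to Mepe (0.553), Phex (0.490) and Dmp1 (0.475). The libraries of the last 3 overlapped with those of their neighbour in the order, while the others were apart. The order of Bglap and Bglap2 rests on a split of reads that is uncertain. In FVB the order began with Alpl (21.4) and Runx2 (0.444), and each gene below them overlapped with its neighbour near 0. Alpl made up 41.6% to 42.9% of the reads of the 10 genes in Tg-RKIP and 93.0% to 95.3% in FVB. Without Alpl and Runx2, the remaining 8 genes together had 54.4, 54.8 and 55.2 CPM in Tg-RKIP, 0.199 to 0.411 CPM in the Tg-GRK2-labelled libraries and 0.240 to 0.531 CPM in FVB.

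The Tg-RKIP libraries resembled each other closely for these genes. The labels number them as hearts and the paper on these data gives 3 mice per group, which could not be checked here. The SD, SE and p-values measure the spread between these libraries, which may be technical. The coefficient of variation of normalised counts was 2.24% for Alpl, 4.07% for Col10a1, 4.77% for Ibsp and 5.22% for Runx2, where counting error alone gives 2.64%, 3.65%, 3.49% and 8.39%. For Bglap it was 23.3% against 12.1% from counting, with 1.65, 1.94 and 2.59 CPM in libraries 1, 2 and 3. Bglap was thus the gene among the 10 with the widest spread relative to counting in Tg-RKIP, and its highest library was the one with the lowest Bglap2 value (1.16 CPM). Outside Tg-RKIP, Runx2 varied by 30.4% in the Tg-GRK2-labelled libraries, where library 1 had 2.13 CPM and the others 1.23 and 1.39 CPM.

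Dmp1, Ibsp and Mepe lie next to each other on chromosome 5 within 135999 bases (chr5:104350479-104361968, chr5:104447037-104459335 and chr5:104473195-104486477, plus strand, GRCm39), in a cluster of secreted phosphoproteins that also holds Dspp and Spp1. Spp1, or osteopontin, had 1592, 2128 and 1555 reads in Tg-RKIP, 16, 20 and 33 in the Tg-GRK2-labelled libraries, and 53, 64 and 56 in FVB. It rose in Tg-RKIP (log2 fold change 4.56 ± 0.07, SE, adjusted p = 9.51e-23) and fell in the Tg-GRK2-labelled libraries (-1.42 ± 0.18, SE, adjusted p = 4.56e-06). Spp1 is on a list chosen with these data known, so these p-values of edgeR are a description. Dspp, the dentine sialophosphoprotein gene at the other end of the cluster, had at most 1 read in any library. The flanking genes differed far less, with Sparcl1 at 246.5 to 253.9 TPM in Tg-RKIP against 185.4 to 189.5 TPM in FVB, and Pkd2 at 15.9 to 16.1 TPM against 10.4 to 11.2 TPM. On log2(TPM + 0.1) the median log2 fold change of all genes tested was itself 0.431 in Tg-RKIP against FVB.

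**Figure D2:**
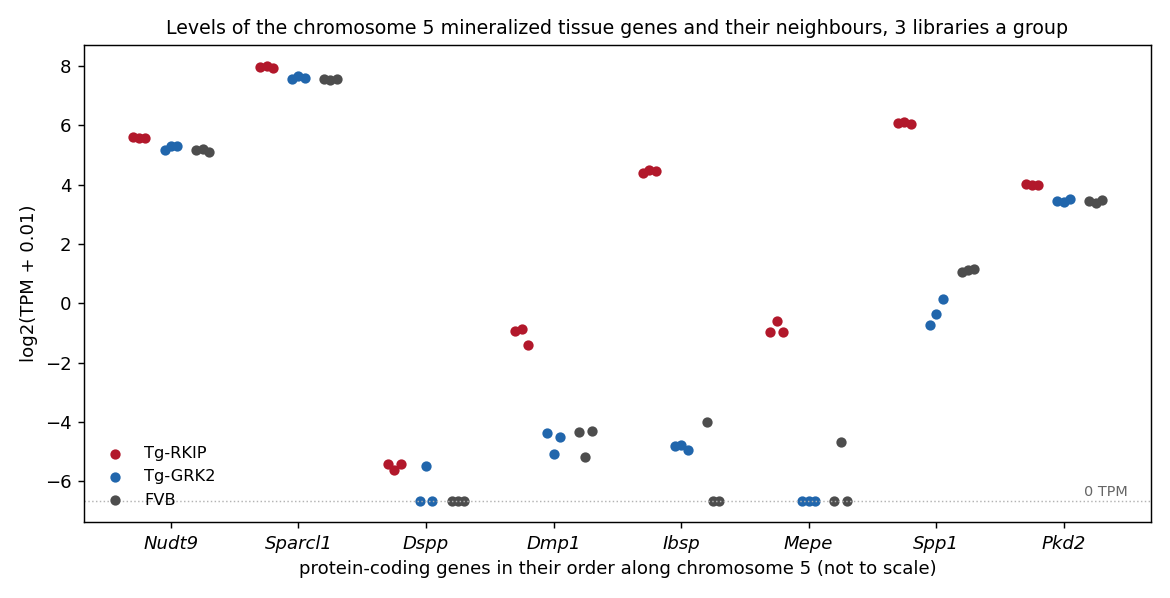
Level on the log2(TPM + 0.01) scale (vertical axis) of the protein-coding genes of the chromosome 5 cluster in their order along the chromosome (horizontal axis, not to scale), with a point per library and a colour per group. Dmp1, Ibsp, Mepe and Spp1 are raised in the 3 Tg-RKIP libraries, while Dspp stays at or near 0 and Nudt9, Sparcl1 and Pkd2 differ far less between groups.

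For 8 of the 10 genes RefSeq gives a promoter on the GRCm38.p6 build, with 10 start sites. Bglap2 and Sp7 are named only. In the 250 bases before the start, the RUNX core motif ACCACA (either strand) occurs at 4 of these 10 sites, those of Bglap, Mepe and Runx2 and the second site of Dmp1, and at 14.1% of the 32851 promoters in the table. The letters TATAAA (same strand) occur before Bglap and Col10a1 and at 7.59% of all promoters. The windows of Bglap, Mepe, Col10a1 and the second site of Dmp1 are shown as those of matrix genes that hold these letters, with the matches in capitals. The first site of Dmp1 and the site of Ibsp hold neither motif.
Bglap, chr3:88384467-88384716, minus strand: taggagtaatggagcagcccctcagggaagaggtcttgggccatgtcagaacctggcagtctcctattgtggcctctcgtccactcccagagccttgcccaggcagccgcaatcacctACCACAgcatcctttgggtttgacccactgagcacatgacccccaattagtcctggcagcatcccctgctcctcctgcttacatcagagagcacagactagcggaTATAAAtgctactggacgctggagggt
Mepe, chr5:104325079-104325328, plus strand: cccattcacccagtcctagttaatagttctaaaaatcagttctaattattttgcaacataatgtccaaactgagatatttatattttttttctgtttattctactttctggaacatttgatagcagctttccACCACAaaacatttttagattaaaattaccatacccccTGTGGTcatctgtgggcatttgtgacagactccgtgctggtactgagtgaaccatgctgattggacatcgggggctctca
Col10a1, chr10:34389731-34389980, plus strand: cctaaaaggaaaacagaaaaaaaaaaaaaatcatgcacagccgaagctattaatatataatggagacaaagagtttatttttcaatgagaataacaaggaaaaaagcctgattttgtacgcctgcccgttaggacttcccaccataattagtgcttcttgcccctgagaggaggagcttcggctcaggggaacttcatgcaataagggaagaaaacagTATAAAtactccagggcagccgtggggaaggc
Dmp1, second site, chr5:104202367-104202616, plus strand: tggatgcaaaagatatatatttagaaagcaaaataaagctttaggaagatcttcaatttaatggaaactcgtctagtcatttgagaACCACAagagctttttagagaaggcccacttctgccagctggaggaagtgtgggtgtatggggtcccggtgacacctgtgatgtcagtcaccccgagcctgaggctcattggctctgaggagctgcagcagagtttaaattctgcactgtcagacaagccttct
In Bglap the RUNX core begins 132 bases and the TATA letters 27 bases before the start, in Mepe the matches begin 118 and 80 bases before it, in Col10a1 the TATA letters begin 32 bases before it, and at the second site of Dmp1 the RUNX core begins 164 bases before it. A match of letters is not evidence of binding, and no binding was measured here.

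Genes with the most similar profile over the 9 libraries were sought among the 14005 or 14006 other genes with a mean of at least 20 reads, by the root mean square difference of centred log2 CPM. Ibsp and Col10a1 were among each other's nearest genes (0.755), both behind Gm26377 (0.324 from Ibsp and 0.505 from Col10a1). The nearest gene was Panx3 for Bglap (0.237), Gdf6 for Bglap2 (0.189), Sfrp2 for Sp7 (0.219), 2610028H24Rik for Dmp1 (0.144), Timp1 for Mepe (0.149), Cyp26a1 for Phex (0.309), Calhm5 for Runx2 (0.152) and Nono for Alpl (0.030). The transgene's own Pebp1 was second for Bglap (0.271) and for Sp7 (0.237), and Comp, a cartilage matrix protein, was among the nearest 3 genes of Bglap2 (0.221) and Sp7 (0.242). A small distance says only that the centred log2 CPM of both genes were alike over these 9 libraries. The prior count of 2 behind these values holds down the differences of genes with few reads, so that genes near 0 outside Tg-RKIP can lie close to genes with smaller ratios.

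Other genes of the same biology were described from 4 lists, of osteoblast and osteocyte genes (20), mineral and phosphate metabolism (20), BMP and Wnt signalling (25) and osteoclast genes (15). None of the 10 genes above is on them. Of these 80 genes 62 were tested, and between Tg-RKIP and FVB 39 rose and 12 fell, where 36.8% of all genes were called higher and 37.1% lower. With library size only the same count was 48 and 7, where 62.6% of all genes were called higher and 17.1% lower, and on log2(TPM + 0.1) it was 47 and 6, where 62.5% and 13.5% were. Against the Tg-GRK2-labelled libraries, 41 rose and 14 fell in Tg-RKIP, where 37.9% of all genes were called higher and 36.6% lower. Between the Tg-GRK2-labelled libraries and FVB 7 rose and 8 fell, where 12.2% of all genes were called in each direction. Some of the genes that rose in Tg-RKIP, such as Fgf23, Grem1, Nog and Atp6v0d2, passed the filter only through their Tg-RKIP libraries. These could hardly be called lower in Tg-RKIP, so the counts are given as a description.

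The osteoblast and osteocyte list had 13 genes tested, of which 10 rose in Tg-RKIP against FVB and 0 fell. Over all genes 36.8% were called higher and 37.1% lower. The list had a median log2 fold change of 1.34 against 0.0085 for all genes. Fgf23, the phosphate-lowering hormone of osteocytes, had 126, 188 and 116 reads in Tg-RKIP and 3, 2 and 4 in FVB. Its log2 fold change was 5.15 ± 0.29 (SE), without a p-value because Fgf23 passed the filter through its Tg-RKIP libraries. It had 0, 2 and 2 reads in the Tg-GRK2-labelled libraries, so no other library came near the lowest Tg-RKIP value. Tnfrsf11b, the decoy receptor osteoprotegerin, rose by 2.85 ± 0.18 and Pth1r, the parathyroid hormone receptor, by 1.72 ± 0.13 (log2 scale and SE here and in the following lists). Sost, the Wnt inhibitor sclerostin of osteocytes, rose by 1.39 ± 0.08, with 366 to 518 reads in Tg-RKIP and 112 to 151 in FVB. Of the list, 7 genes, among them Dspp, Dlx3 and Ifitm5, were too low to be tested.

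In the mineral list 10 of 15 genes tested rose and 4 fell, where 36.8% of all genes were called higher and 37.1% lower. The median of the list was 0.71. Mgp, the matrix Gla protein that holds back calcification, rose by 1.92 ± 0.02, from 5732 to 6771 reads in FVB to 27023 to 35853 reads in Tg-RKIP, and Sparc, or osteonectin, by 1.44 ± 0.02. Enpp1, which makes pyrophosphate, rose by 0.71 ± 0.06, whereas Ank, which exports it, fell by 0.99 ± 0.02 on the log2 scale. Of the phosphate transporters, Slc20a1 rose by 0.33 ± 0.06 and Slc20a2 fell by 0.82 ± 0.02. Phospho1 and Ggcx also fell by TMM, but their direction turned with library size only (0.09 and 0.16).

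In the signalling list 11 of 23 genes tested rose and 7 fell, with a median of 0.26. Over all genes 36.8% were called higher and 37.1% lower. With library size only 14 of the list rose and 4 fell, where 62.6% and 17.1% of all genes did. Nothing is read from these counts. The ligands Bmp4 (1.80 ± 0.05), Bmp2 (1.08 ± 0.10) and Bmp6 (0.98 ± 0.04) rose, and so did the BMP antagonist Nog (2.31 ± 0.36) and the Wnt modulator Sfrp4 (2.30 ± 0.26). Grem1, another BMP antagonist, had 18, 20 and 20 reads in Tg-RKIP and 0 in each FVB library, which makes it at least 14.95-fold higher. The receptor Bmpr1a (-0.56 ± 0.03), Wnt5a (-0.65 ± 0.07) and the Wnt inhibitor Wif1 (-0.94 ± 0.05) fell, whereas the lower values of Smad5, Smad9 and Lrp6 turned on log2(TPM + 0.1).

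In the osteoclast list 8 of 11 genes tested rose and 1 fell, where 36.8% of all genes were called higher and 37.1% lower. The median of the list was 0.51. The tartrate-resistant acid phosphatase Acp5 rose by 1.90 ± 0.09, the collagen-degrading cathepsin Ctsk by 1.74 ± 0.06 and the proton pump subunit Atp6v0d2 by 3.10 ± 0.38. The defining receptor Calcr and the fusion genes Dcstamp and Ocstamp had at most 6 reads in any library and were not tested, and Car2 fell by 0.76 ± 0.12. Acp5, Ctsk and Tcirg1 are also expressed outside osteoclasts, in macrophages among others.

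**Figure D3:**
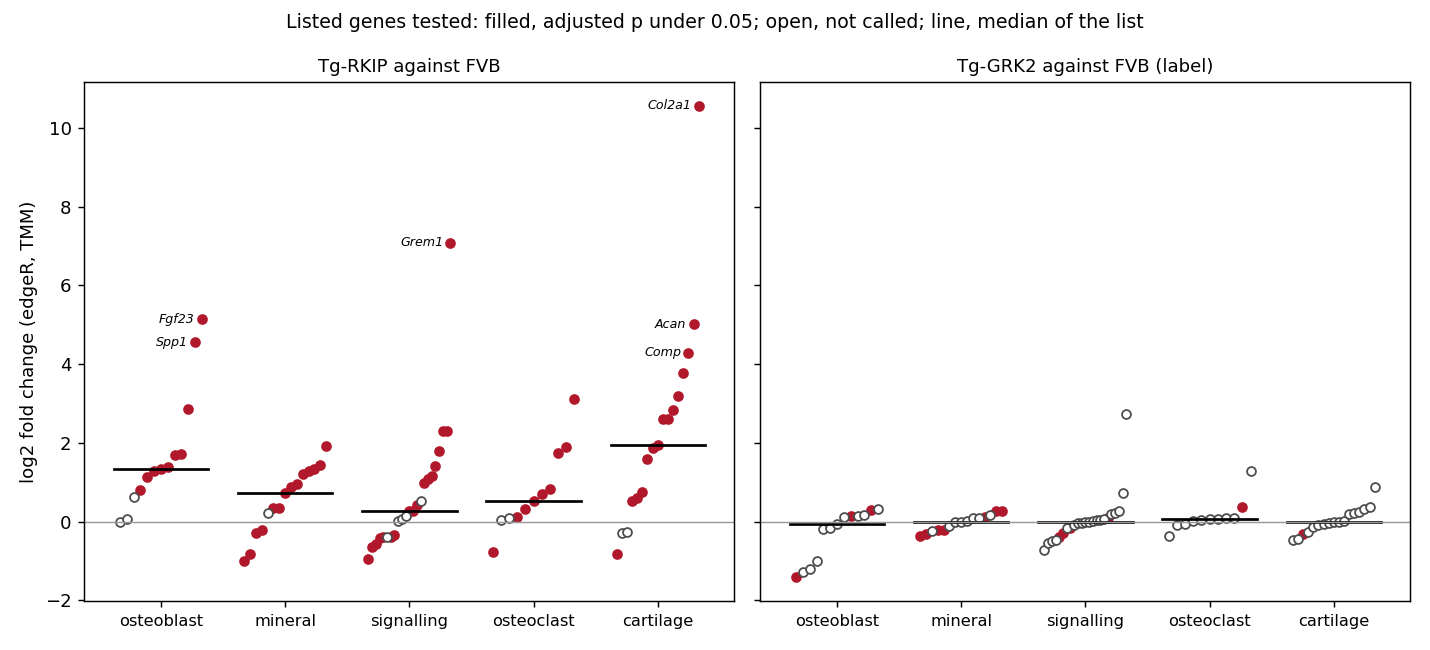
Log2 fold change by edgeR (vertical axis) of each tested gene of the 4 bone lists and of the cartilage list, for Tg-RKIP against FVB and for the Tg-GRK2-labelled libraries against FVB, with filled points for an adjusted p-value under 0.05, open points for the others and a line at the median of each list. In Tg-RKIP the medians are 1.34, 0.71, 0.26, 0.51 and 1.96, and for the Tg-GRK2-labelled libraries they lie between -0.05 and 0.06. The value of Grem1, with 0 reads in FVB, depends on the fit.

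Markers of other tissues also differed between the groups, and their part in the differences of the 10 genes was not tested. Between Tg-RKIP and FVB 36.8% of all genes were called higher and 37.1% lower by TMM. These shares stand beside each count of that contrast in this paragraph. Of 23 cartilage genes 17 were tested, and 14 rose and 1 fell in Tg-RKIP against FVB. Their summed level was 636.5 to 648.4 TPM in Tg-RKIP, 74.4 to 75.6 TPM in the Tg-GRK2-labelled libraries and 81.4 to 83.4 TPM in FVB. Col2a1, the defining collagen of cartilage, had 2593, 3291 and 2563 reads in Tg-RKIP, 1, 1 and 3 in the Tg-GRK2-labelled libraries, and 0, 1 and 3 in FVB. Most of the cartilage sum in Tg-RKIP was Comp, at 290.1 to 296.1 TPM, and Cytl1, at 223.8 to 229.6 TPM. Sox6 fell by 0.83 ± 0.06, and Cnmd and Epyc were not called. Snorc had 12, 12 and 9 reads in Tg-RKIP and was at 0 in FVB. Matn3 had 1, 4 and 2 reads in Tg-RKIP and was at 0 in the Tg-GRK2-labelled libraries. All 8 fibroblast genes rose in Tg-RKIP, led by Col1a1 (2.55 ± 0.02), the main collagen of bone and of scar. Against FVB, 6 of the 8 were also called higher in the Tg-GRK2-labelled libraries, where 12.2% of all genes were. The fibroblast sum was 2888 to 2906 TPM in Tg-RKIP, 1207 to 1225 TPM in the Tg-GRK2-labelled libraries and 1060 to 1091 TPM in FVB. Of the cardiomyocyte genes 6 of 7 fell by TMM, and their sum on normalised counts was 32610 to 33090 CPM in Tg-RKIP, 56750 to 57760 CPM in the Tg-GRK2-labelled libraries and 56510 to 57520 CPM in FVB. In TPM the same sums lay closer, at 45810 to 46670 in Tg-RKIP, 46340 to 47800 in the Tg-GRK2-labelled libraries and 48380 to 48680 in FVB. Of 5 endothelial genes 3 rose and 2 fell, with sums of 349.2 to 355.2 TPM in Tg-RKIP, 242.8 to 248.0 TPM in the Tg-GRK2-labelled libraries and 238.6 to 244.8 TPM in FVB. The direction of this sum turned on normalised counts, where it was 568.6 to 578.1 CPM in Tg-RKIP, 618.9 to 629.2 CPM in the Tg-GRK2-labelled libraries and 615.8 to 624.5 CPM in FVB.

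Genes of airway and lung also differed, in another pattern. All 4 of the 7 that were tested rose in both transgenic groups. Over all genes 36.8% were called higher in Tg-RKIP and 12.2% in the Tg-GRK2-labelled libraries, against FVB. Scgb1a1, Scgb3a2, Bpifa1 and Cyp2f2 passed the filter on low counts only through the transgenic libraries, so nothing is read from this count. The sums were 87.7 to 94.2 TPM in Tg-RKIP, 189.5 to 199.5 TPM in the Tg-GRK2-labelled libraries and 0.284 to 0.516 TPM in FVB. In FVB, Scgb1a1, Scgb3a2, Bpifa1 and Sftpc were at 0. Of 15 marrow and blood genes 7 were tested and 7 rose in Tg-RKIP against FVB, where 36.8% of all genes were called higher. Prtn3, Ltf, S100a8 and S100a9 passed the filter on low counts only through transgenic libraries, so nothing is read from this count. The sums were 1540 to 1639 TPM in Tg-RKIP, 320.5 to 325.1 TPM in FVB and 728.8 to 760.6 TPM in the Tg-GRK2-labelled libraries. Most of these sums was the haemoglobin gene Hba-a1, at 1343 to 1451 TPM in Tg-RKIP and 265.6 to 268.2 TPM in FVB. The granule gene Prtn3 had 18, 22 and 14 reads in Tg-RKIP, 5, 2 and 2 in the Tg-GRK2-labelled libraries and 1, 0 and 0 in FVB. Ltf, or lactoferrin, had 128 to 191 reads in Tg-RKIP, 116 to 164 in the Tg-GRK2-labelled libraries and 1 in each FVB library. The neutrophil genes S100a8 (4.06 ± 0.49) and S100a9 (2.83 ± 0.40) rose in Tg-RKIP against FVB. The marrow granule genes Elane and Mpo had at most 3 reads in any library and 0 in both other groups, and Ctsg, Epx and Prg2 were also at 0 in FVB.

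**Figure D4:**
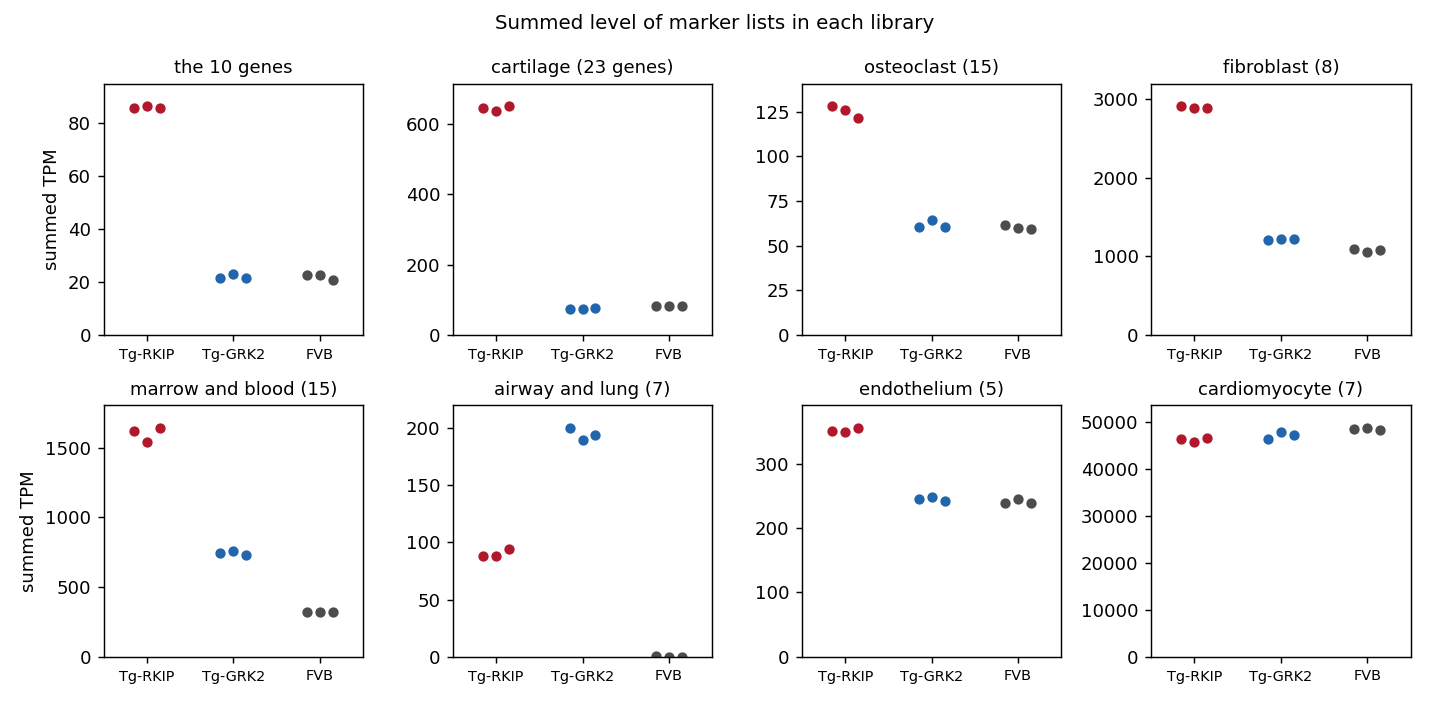
Summed TPM (vertical axis, starting at 0, a separate scale per panel) of the 10 genes and of marker lists of other tissues in each library, with a colour per group. The 10 genes reach 85.5 to 86.2 TPM in Tg-RKIP against 20.9 to 22.8 TPM in FVB, and the cartilage sum follows the same pattern, whereas the airway sum is highest in the Tg-GRK2-labelled libraries.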

How the data were processed

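Total RNA of pulverised hearts was fragmented, primed with random hexamers and sequenced as single reads of 50 bases. The authors deposited read counts per transcript without normalization, and TPM values per transcript, which equal the TPM recomputed from the counts within 5.5e-06. The build GRCm39 is named in the submitters' processing notes; the aligner and counter are not given in the sources used here. Counts and TPM of 127558 transcripts were summed by gene name. The test on counts was the quasi-likelihood test of edgeR 4.0.16 under R 4.3.3 (TMM, filterByExpr, glmQLFit and glmQLFTest, all 9 libraries, a mean per group, Benjamini-Hochberg over 15504 genes, threshold 0.05), and the biological coefficient of variation was 2.86%. SE is the fold change divided by the root of F. With limma 3.58.1 and DESeq2 1.42.0, other scalings, filters and samples were tried as alternatives. Ratios of summed reads, scaled by TMM library sizes, have exact conditional 95% intervals from scipy 1.17.1, and against 0 reads a floor of 3 reads over the group was used. These ratios, also without each library, were chosen after the data were seen. The fit was tested on simulated data. No libraries of a group were identical, and each pair differed by more than sampling noise.

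The 10 genes and all lists were chosen with earlier results of these data known, so none of them is independent evidence. Besides the 10 genes, the rule for named genes took, from each list and comparison, up to 4 genes with the largest and 4 with the smallest fold change among those past the threshold with groups that did not overlap, the first 3 genes of the list, the 3 nearest profiles and the label checks. Sost, Dspp, Dlx3, Ifitm5, Dcstamp, Ocstamp, Smad5, Smad9, Lrp6, Snorc, Matn3, Cnmd, Ctsg, Epx, Prg2, Sftpc, Sparcl1, Pkd2, Nudt9 and Nt5dc1 were added after their values were seen. A few listed genes are left out of the text. Ankh is listed in the tables as Ank. The reference sequences are of another build and were used for letters only.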

Additional observations from a re-analysis of the deposited data

How the results depend on the processing

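Each result was recomputed in 20 alternatives where the genes passed the filter. The contrast with Tg-RKIP chose the 10 genes, so their direction and calls over the alternatives are not counted as support. The count of listed bone genes higher in Tg-RKIP ran from 29 to 48 against FVB (39 as reported) and from 30 to 47 against the Tg-GRK2-labelled libraries (41 as reported). The count lower against FVB (12 as reported) was 7 with library size only, 6 by limma on either TPM scale and 3 with a fold change of at least 1.5, and that against the Tg-GRK2-labelled libraries (14 as reported) was 8, 7 and 4. Between the Tg-GRK2-labelled libraries and FVB, the count higher (7 as reported) was 4 by limma on either TPM scale and 0 with a fold change of at least 1.5. The count lower there (8 as reported) was 5 by DESeq2, 5 with the most abundant transcript and 1 with a fold change of at least 1.5. The cause was not tested. Leaving out each library in turn gave 38 to 42 higher and 12 to 13 lower against FVB, 41 to 44 and 12 to 15 against the Tg-GRK2-labelled libraries, and 5 to 8 and 6 to 8 between the Tg-GRK2-labelled libraries and FVB. Over all 15655 to 15859 genes tested, the same fits gave 5446 to 5850 higher and 5566 to 5818 lower against FVB. Against the Tg-GRK2-labelled libraries they gave 5637 to 5920 and 5466 to 5738, and between those libraries and FVB 1576 to 1892 and 1522 to 1881.

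Over all genes, Tg-RKIP against FVB gave 5709 higher calls and 5751 lower ones as reported, 9710 and 2649 with library size only, 9690 and 2087 by limma with a pseudocount of 0.1, 9784 and 2097 with a pseudocount of 1, and 1975 and 1690 with a fold change of at least 1.5. Against the Tg-GRK2-labelled libraries the 5874 and 5677 genes became 9608 and 2847, 9194 and 2440, 9353 and 2460, and 2033 and 1834 in the same settings. Between the Tg-GRK2-labelled libraries and FVB the 1895 and 1898 genes became 1467 and 1206 by DESeq2, 1443 and 566 or 1501 and 606 by limma, 816 and 844 with the most abundant transcript, and 82 and 73 with a fold change of at least 1.5.

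Same-numbered libraries of different groups did not deviate together (9 correlations from -0.046 to 0.021), so the numbers do not pair them. With the replicate block, 39 listed bone genes were called higher and 12 lower between Tg-RKIP and FVB, and over all genes 5666 and 5735. Outside Tg-RKIP, 8 of the 10 genes had 0 to 8 reads per library. At this depth a difference between the Tg-GRK2-labelled libraries and FVB was not detectable for them unless large.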
